A study of Mus musculus with 2 samples.

Results

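Polycomb repressive complex 1 (PRC1) genes were compared between mouse embryonic stem (ES) cells depleted of the histone variant H2A.B and ES cells with a control hairpin. The 10 genes were Ring1, Rnf2, Bmi1, Pcgf1, Pcgf2, Pcgf6, Cbx2, Cbx7, Rybp and Kdm2b. They were taken as every probe set whose annotated gene symbol is exactly one of these names, which gave 19 probe sets of the 45118 in the table. Both groups were cultures of mouse ES cells grown without feeder cells, on gelatin and in medium with serum and leukaemia inhibitory factor. The control group carried a pMSCV-neo retrovirus with a control hairpin sequence, and the H2A.B KD group carried the same kind of virus with a U6-driven hairpin against H2A.B. Both were kept in G418 for 2 to 4 weeks, so the cells were populations selected for the virus. Age, sex and the parental ES cell line were not given in the sources used here. Each group had 1 array, hybridised with target made from 2 µg of total RNA, and the title of the H2A.B sample numbers it 1. With 1 array per group there is no replicate error and no test, and every value below describes these 2 arrays.

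PRC1 is the Polycomb complex that places ubiquitin on a lysine in the C-terminal tail of histone H2A, through the RING-finger ligases Ring1 and Rnf2 (Ring1A and Ring1B). Each complex holds a Pcgf protein as the partner of the ligase. Complexes with Pcgf2 or Bmi1 and a Cbx protein are called canonical, because the Cbx chromodomain reads the methyl mark left by PRC2; complexes with Rybp in place of Cbx are called variant, and Kdm2b brings the Pcgf1 complex to CG-rich DNA. In ES cells these complexes are known for keeping developmental regulators silent, and Rnf2 and Cbx7 are known as the prevalent ligase and Cbx protein there. H2A.B is a short H2A variant with a truncated C-terminal tail.

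The CG dinucleotide is the sequence that the zinc finger of Kdm2b binds when it is not methylated, and it was counted in the start regions of the PRC1 genes. RefSeq start windows (GRCm38.p6, 250 bases before to 50 after the start) were at hand for 7 of the 10 genes, in 10 windows; those of Pcgf1, Cbx2 and Rybp were not used here. The motif searched was CG, which reads the same on both strands, and matches do not overlap. At least 1 CG stood in 94.6% of all 32851 windows, with a median of 7. The member windows held from 10 to 49, with a median of 29, and all 10 lay above the median of all windows. Windows for the 2 genes with the largest differences on their brightest probe sets, Pcgf2 and Kdm2b, are shown with each CG in capitals. Of the Kdm2b windows, the one with the most CG is shown. The 2 windows shown are also the member windows with the fewest and the most CG, which for Kdm2b comes partly from that choice.
Pcgf2, minus strand, chr11:97699599-97699898: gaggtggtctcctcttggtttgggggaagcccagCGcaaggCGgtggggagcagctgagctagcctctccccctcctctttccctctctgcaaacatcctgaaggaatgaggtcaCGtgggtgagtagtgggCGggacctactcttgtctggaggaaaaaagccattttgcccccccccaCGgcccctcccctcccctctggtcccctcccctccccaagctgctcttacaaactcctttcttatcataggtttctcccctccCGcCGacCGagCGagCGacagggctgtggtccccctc
Kdm2b, minus strand, chr5:122900301-122900600: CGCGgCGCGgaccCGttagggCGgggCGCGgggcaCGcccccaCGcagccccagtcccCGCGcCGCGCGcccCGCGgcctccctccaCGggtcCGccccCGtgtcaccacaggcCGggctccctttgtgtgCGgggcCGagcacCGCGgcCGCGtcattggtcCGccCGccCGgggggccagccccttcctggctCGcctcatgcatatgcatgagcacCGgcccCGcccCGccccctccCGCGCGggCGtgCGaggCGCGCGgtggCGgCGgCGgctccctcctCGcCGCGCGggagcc
The Pcgf2 window has 10 CG, a number that 43.5% of all windows reach. The Kdm2b window has 49, which 1.02% reach, and Kdm2b has 3 further windows with 47, 18 and 28, the first of which overlaps the one shown. The others held 23 (Bmi1), 22 (Pcgf6), 30 (Rnf2), 33 (Cbx7) and 37 (Ring1). These counts describe the sequence only, and methylation or binding at these sites was not measured.

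The values are log2 intensities made with RMA, which corrects background, puts arrays on one distribution and summarises the probes of a probe set. Differences are knockdown minus control on the log2 scale, so a difference of 1 is 2-fold, the size at which a probe set is called apart. In the deposited table, knockdown values that are not log2 intensities, since they rise in steps of 1 or exceed 20, number 618, and 1455 control values repeat a value up to 20 rows above. All 19 PRC1 probe sets were outside both kinds. The repeats lie between rows 18185 and 33642, and the table is described in sections before, within and after that stretch, because the middle 90% of differences runs from -0.31 to 0.18 in the first, from -0.99 to 0.56 in the middle and from -0.95 to 0.56 in the last. No probe set named H2A.B genes (0 found), so the depletion was not checked here. The ES cell label was checked against 14 markers: all 13 with a usable probe set passed the expression filter described further on, with Pou5f1 at 12.65 in control and 12.64 in knockdown cells, Sox2 at 12.38 and 12.41 and Nanog at 11.79 and 11.69.

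None of the 19 PRC1 probe sets was 2-fold apart (0 higher, 0 lower), against 4.19% of the 27614 usable probe sets that name a single gene. In a set of 19 a share of that size comes to about a single probe set, so the count of 0 is near the background. At 1.5-fold the count was 0 as well, against 9.1% of all. The differences ran from -0.04 to 0.29 with a median of 0.01, where all usable probe sets had a median of -0.0077. Of the 19, 15 were within 0.1 of 0 (78.9%), against 57.1% of all. Within sections, 10 of the 12 in the first were within 0.1 (83.3%, against 77.1% of all in it), 2 of 2 in the middle (38.4% of all) and 3 of 5 in the last (35.9% of all). All 4 probe sets outside that limit were higher on the knockdown array, and they belong to Pcgf2, Kdm2b and Cbx2. At any size, 12 of the 19 were higher and 7 lower, against 12758 higher and 14769 lower of all 27614. The share higher among all probe sets outside 0.1 was not computed, so the common direction of these 4 has no background to be read against.

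**Figure D1:**
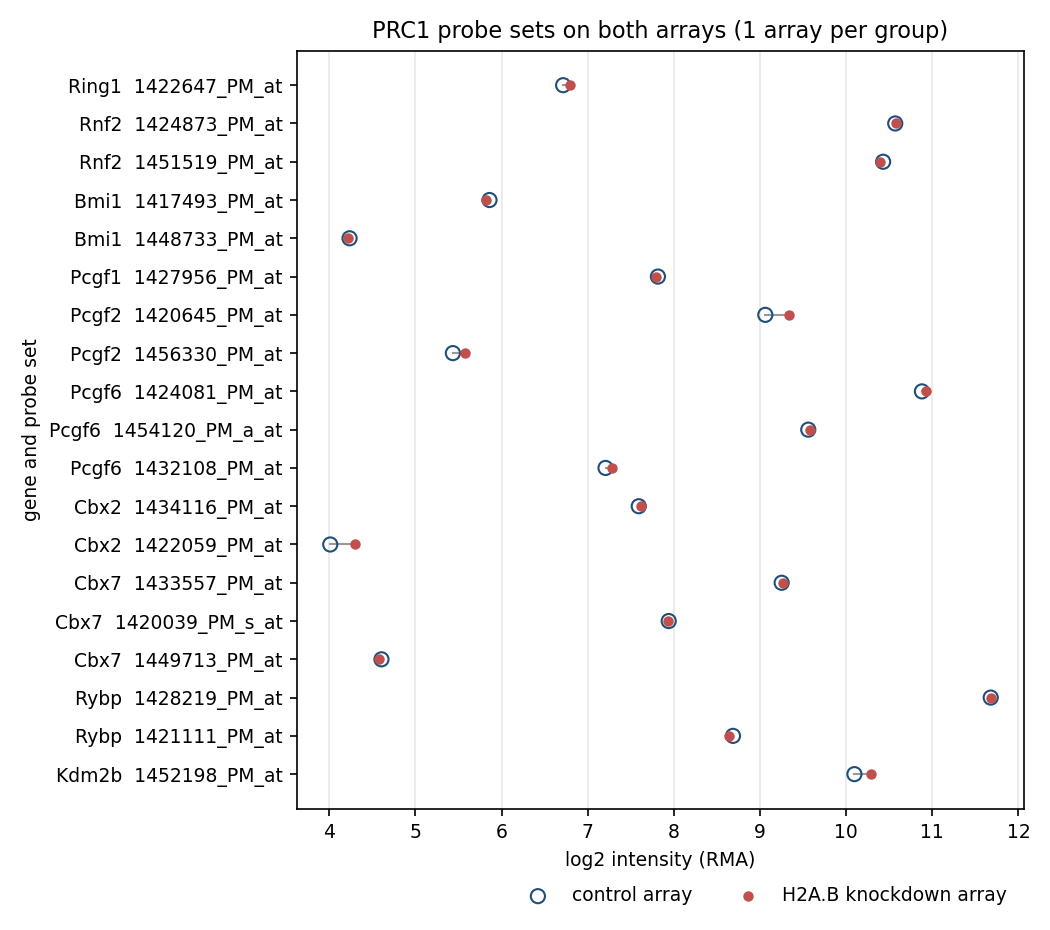
Log2 intensity (horizontal axis) of each of the 19 PRC1 probe sets on the control array (open circles) and the H2A.B knockdown array (filled points), with 1 array per group and no error bars. The points of most probe sets lie on top of each other; the visible gaps are those of Pcgf2 (9.06 and 9.33; 5.43 and 5.57), the dimmer Cbx2 probe set (4.01 and 4.30) and Kdm2b (10.10 and 10.29).

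The catalytic genes barely differed between the arrays. Rnf2, the E3 ligase gene, was read at 10.57 in control and 10.58 in knockdown cells by probe set 1424873_PM_at, and at 10.43 and 10.40 by 1451519_PM_at. Its 2 differences, 0.0061 and -0.03, fall on either side of 0. Ring1, the paralogous ligase gene, has 1 probe set, with 6.71 in control and 6.80 in knockdown cells. That is 1.06-fold higher (0.08), and 29.5% of the 8493 usable probe sets in the same section and in the brighter part of the arrays differed by at least as much. Brighter and dimmer mean at or above, and below, the median over usable probe sets of the mean of both arrays, 5.62.

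The largest difference among bright PRC1 probe sets was that of Pcgf2. Pcgf2 encodes Mel18, a RING-finger partner of the ligase in canonical PRC1. Probe set 1420645_PM_at had 9.06 in control and 9.33 in knockdown cells, 1.21-fold higher (0.27). It lay above the 95th percentile of its section, 0.18, and 7.16% of the probe sets of that section and brightness differed by at least as much in either direction. The dimmer probe set 1456330_PM_at had 5.43 and 5.57, a difference in the same direction (0.14). That one lies in the last section, where 54.6% of dimmer probe sets differed by at least as much. Both Pcgf2 readings were thus higher on the knockdown array, but only the first stood toward the edge of its section. That reading was picked as the largest of the 15 brighter PRC1 probe sets, so its place does not set it apart from the background.

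Bmi1, also known as Pcgf4, is the closest relative of Pcgf2 and takes the same place in canonical PRC1. Its 2 probe sets were both slightly lower on the knockdown array: 1417493_PM_at had 5.86 and 5.82 (-0.04), and 1448733_PM_at had 4.23 and 4.22 (-0.01). These are low signals, the second below the median of all usable probe sets, and Bmi1 was the only one of the 10 genes that did not pass the expression filter. Signal over background was not analysed. The higher Pcgf2 and slightly lower Bmi1 readings were not tested against each other, since there is no replicate.

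The Cbx genes encode the chromodomain subunits of canonical PRC1. Cbx7 had 3 probe sets, all within 0.03 of 0. The brightest, 1433557_PM_at, had 9.25 in control and 9.27 in knockdown cells. Probe set 1420039_PM_s_at, whose s suffix marks probes shared between transcripts, had 7.94 and 7.93, and 1449713_PM_at had 4.60 and 4.58. The last of these is below the median of both arrays, so the Cbx7 values rest on the other 2. For Cbx2, which compacts nucleosomes, the probe sets gave different sizes. The brighter, 1434116_PM_at, had 7.59 in control and 7.62 in knockdown cells (0.03). The dimmer, 1422059_PM_at, had 4.01 and 4.30, which is 1.22-fold higher and the largest difference of the 19 (0.29). That reading is below the median intensity of both arrays; 9.96% of the 5340 dimmer probe sets of its section differed by at least as much.

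Genes of variant PRC1 followed the same narrow range, apart from Kdm2b. Pcgf1, the Pcgf partner in the complex that Kdm2b brings to CG-rich DNA, has 1 probe set, with 7.81 in control and 7.80 in knockdown cells (-0.02). Kdm2b, the demethylase-family protein with the CG-binding zinc finger, has 1 probe set, 1452198_PM_at, with 10.10 and 10.29. That is 1.14-fold higher (0.19), and 45.7% of the 3858 brighter probe sets of the last section differed by at least as much, so the Kdm2b difference is ordinary for its place in the table. Its single probe set leaves it without a second reading.

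Rybp, which takes the place of Cbx proteins in variant complexes, had the difference closest to 0. Probe set 1428219_PM_at had 11.68 on both arrays (0.00024), and 1421111_PM_at had 8.69 in control and 8.64 in knockdown cells (-0.04). Pcgf6 defines the variant complex PRC1.6, which is known for keeping germline genes silent in ES cells. Its 3 probe sets were all slightly higher on the knockdown array. Probe set 1424081_PM_at had 10.88 and 10.92 (0.04), 1432108_PM_at had 7.21 and 7.28 (0.07), and 1454120_PM_a_at, whose a suffix marks alternative transcripts of one gene, had 9.56 and 9.58 (0.01). The 3 readings agree in sign, and each is under 0.1.

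**Figure D2:**
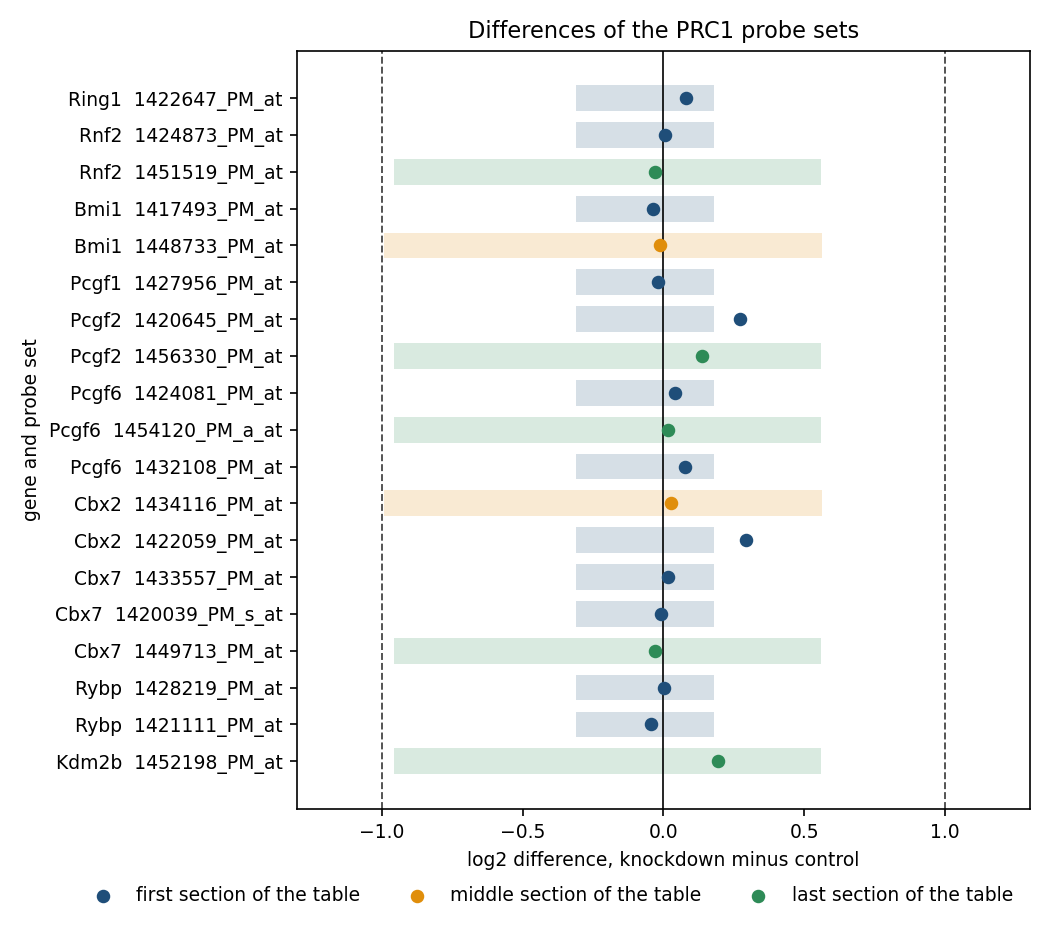
Log2 difference, knockdown minus control (horizontal axis), of each PRC1 probe set as a point coloured by its section of the deposited table; the pale bar spans the 5th to the 95th percentile of usable single-gene probe sets in that section, and dashed lines mark 2-fold. The points of Pcgf2 at 0.27 and Cbx2 at 0.29 lie to the right of their bars, which end at 0.18, and the other 17 lie within theirs. By construction each bar holds only the middle 90% of its section, so a few points outside are ordinary for a set of this size.

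The spread between probe sets of one gene is the only spread these arrays give for a gene, and it holds no biological replication. Besides technical error it can hold differences between transcripts and between sections of the table. Over 6826 genes with at least 2 usable probe sets, the SD of the difference within a gene had a median of 0.06. The 7 PRC1 genes with at least 2 probe sets had a median SD of 0.03, from 0.02 for Bmi1 to 0.19 for Cbx2. Pcgf2, at 0.10 (SD, n = 2 probe sets), and Cbx2 were above the median of all genes. All probe sets of a gene had one sign in 4 of the 7, with Pcgf2, Pcgf6 and Cbx2 higher and Bmi1 lower on the knockdown array, while Rnf2, Cbx7 and Rybp had both signs; among all genes with at least 2 probe sets 47.6% had one sign. By role, the 3 catalytic probe sets had a median difference of 0.0061, the 9 canonical ones (Bmi1, Pcgf2, Cbx2, Cbx7) one of 0.01 and the 7 variant ones (Pcgf1, Pcgf6, Rybp, Kdm2b) one of 0.01.

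Other PRC1 subunits included readings that were 2-fold apart. Here each gene was given its brightest usable probe set, and genes with a mean over both arrays at or above the median over genes, 6.73, passed the expression filter; 1.96% of the 8282 genes past it were 2-fold apart (1.28% were lower), and 4.04% of all 16563 measured genes (2.91% lower). The 10 PRC1 genes above had 0 of 10 apart and 0 of 9 past the filter. Of 27 other subunits listed, 22 had a usable probe set and 15 passed the filter: 1 was 2-fold lower, 0 were 2-fold higher, and the median was 0.04 (-0.0016 over all genes past the filter). That gene was Cbx3, which encodes the heterochromatin protein HP1 gamma, a component of PRC1.6. Cbx3 had 11.31 in control and 10.18 in knockdown cells, 2.19-fold lower (-1.13), and it lies in the first section. Its other probe set, a dim one in the middle section, read 4.11 in control and 3.11 in knockdown cells. That reading is below the median of both arrays and its difference lies near the 5th percentile of its section, -0.99, so the size rests on the bright probe set. Pcgf6 of the same complex was within 0.1 on all 3 probe sets.

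Below the filter, Auts2 and Phc3 were also 2-fold lower, which made 3 of the 22 measured. The list was chosen with earlier results of these data known, so this count cannot show an excess over all genes. Auts2, of the variant complexes with Pcgf3 or Pcgf5, had 6.06 and 4.97 (-1.09, with -1.24 on its other probe set). Phc3, a Polyhomeotic subunit of canonical PRC1, had 6.40 and 5.34 on its single usable probe set (-1.06). Phc3 lies in the last section, where the 5th percentile of differences is -0.95, and the brighter Auts2 probe set in the first, where it is -0.31. Those percentiles cover all brightness levels, and on the knockdown array both genes read below its median, 5.59. Phc1, a relative of Phc3, was bright on both arrays, with 11.77 and 11.92 (0.16). E2f6, a DNA-binding subunit of PRC1.6, differed by 0.38 on one probe set and -0.42 on the other, so its readings disagree in sign. The first is bright (8.37 in control and 8.75 in knockdown cells) and the second dim (5.65 and 5.23). Both lie in the middle section. Scmh1 differed by 0.11.

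PRC2, which methylates a lysine of histone H3 and so makes the mark that Cbx proteins read, had 9 of 12 listed genes past the filter and 0 of them 2-fold apart (median 0.05, 6 above and 3 below 0). Eed, the subunit that binds the methyl mark, had 11.99 in control and 11.66 in knockdown cells (-0.33), in the middle section. Epop, a PRC2 accessory gene, had 9.96 and 10.27 (0.32), in the first section, where the 95th percentile is 0.18. Aebp2 differed by -0.19 and Rbbp4 by 0.10. Genes linked to the removal of ubiquitin from H2A, which are deubiquitinases and the Asxl cofactors of Bap1, had 6 of 8 past the filter and 0 of them 2-fold apart (median 0.03). Usp22 was the furthest, with 10.26 and 10.63 (0.37, and 0.40 on its other probe set) in the middle section, followed by Usp21 (-0.20), Bap1 (-0.16, and -0.23 on its other probe set) and Mysm1 (0.07).

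Genes that PRC1 is known to keep silent were read in a germline and a developmental list. The expression filter is a median, so 8282 of all 16563 measured genes pass it. The germline list passed at near that share and the developmental list at a lower one. Of 12 germline genes listed as PRC1.6 targets, 9 were measured and 4 passed the filter, 0 of them 2-fold apart (median 0.07). Dazl, an RNA-binding protein gene of germ cells, had 6.37 in control and 7.36 in knockdown cells, 1.99-fold higher in the last section, but its other probe set differed by -0.46. Sycp3 differed by -0.35, Stag3 by 0.16 and Ddx4 by -0.03. Below the filter Tex101 had 5.42 and 3.45, 3.90-fold lower on a single probe set of the middle section. Both signals were below the medians of their arrays. Of 40 developmental regulators listed as Polycomb targets, 35 were measured and 5 passed the filter, 0 of them 2-fold apart (median -0.11). Over all 35 measured, 0 were 2-fold apart and the median was -0.03. Hoxa7 differed by 0.79 on a single probe set of the last section, where the 95th percentile is 0.56. Neurog1 differed by 0.28, with 0.13 on its other probe set. Gata2 differed by -0.27 in the last section, where the 5th percentile is -0.95. Its other probe set differed by -0.39 in the first section, past the 5th percentile there. Pax6 differed by -0.78 in the first section, where the 5th percentile is -0.31, while its other 3 probe sets differed by 0, -0.03 and 0.03.

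**Figure D3:**
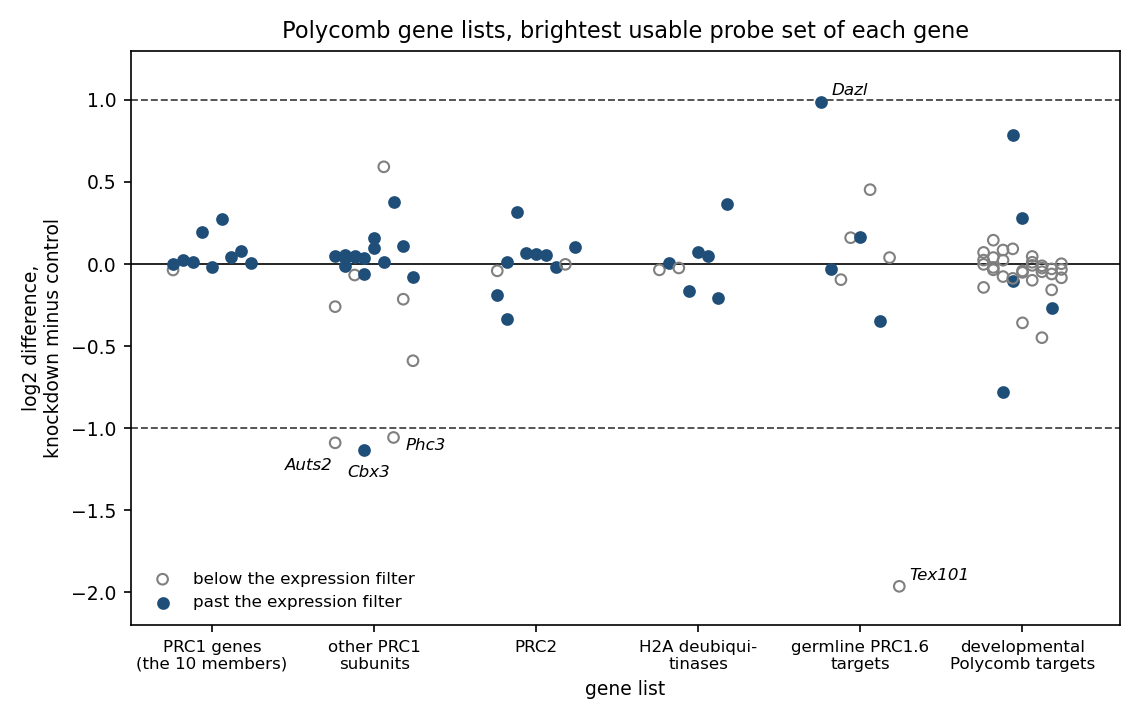
Log2 difference, knockdown minus control (vertical axis), of each gene on its brightest usable probe set, for the 10 PRC1 genes and 5 other Polycomb lists; filled points passed the expression filter, open points did not, and dashed lines mark 2-fold. The 10 PRC1 genes lie between -0.04 and 0.27, while Cbx3 (-1.13), Auts2 (-1.09), Phc3 (-1.06) and Tex101 (-1.96) lie below the lower line and Dazl (0.99) lies just under the upper line.

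Markers of other cell types were read beside these values. Of 10 fibroblast markers, all 10 were measured and 5 passed the filter, each of those above 0 (median 0.10). Of all 8282 genes past the filter, 4086 were above 0, and their median was -0.0016. Vim was at 0.34, Col1a1 at 0.25 and Fn1 at 0.10, and the markers below the filter lay between -0.04 and 0.18. Linear intensity summed over the measured fibroblast markers was 1.12-fold that of control, a sum in which bright genes such as Vim and Fn1 weigh most. The same ratio was 1.04 for primitive endoderm, 1.02 for ES cell and 0.91 for trophoblast markers. It was not computed over all genes. Of 9 primitive endoderm markers 2 passed the filter (median 0.09), Lamb1 at 0.10 and Sparc at 0.09, and the defining Gata6 and Gata4 had control values of 4.77 and 5.09, below the array's median; Col4a1, below the filter, was 2.24-fold lower (-1.22 on a second probe set). Of 9 trophoblast markers 8 were measured and 4 passed (median -0.20). The furthest of those was Ascl2 (-0.38), whose other probe sets disagreed in sign (-0.95 and 0.99), followed by Krt18 (-0.29). Cdx2, at 5.92 in control and 5.84 in knockdown cells, did not pass the filter. The ES cell list had a median difference of 0.05, with Esrrb at 0.33. The part of these markers in the Pcgf2, Kdm2b and Cbx3 readings was not tested.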

How the data were processed

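Labels put 1 array in each of the control KD and H2A.B KD groups. The deposited values are log2 intensities made by the authors with RMA, as the submitters' processing notes say without a version; the scale is read from the control column (0.801 to 14.5). The deposited knockdown column holds other values too: 616 form a step series (rows 2054 to 4710) and 2 more exceed 20. These 618, and 1455 control values identical to a value up to 20 rows above, were left out. Of 45118 probe sets, 28898 name 1 gene, 551 several and 15669 none in the platform annotation; 27614 of the first were usable. List genes were matched through gene identifiers of a GRCm38.p6 gene table.

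Differences were computed in Python 3.11.15 with pandas 2.3.3 and statsmodels 0.14.6 (lowess centring only). No centring was used otherwise, and no test was possible with 1 array per group. An array gives no depth, and the number of arrays limits precision. All 10 members are named on every probe set. Of each other list, the genes past 2-fold and up to 4 past the filter with the largest differences are named, and of each marker list the defining genes and up to 3 others. The members and lists were chosen with earlier results of these data known. The alternatives were keeping or pairwise removal of repeats, the median over probe sets, suffix-free probe sets, 2 other filters, 2 centrings, a 1.5-fold rule and leaving out the middle section.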

Additional observations from a re-analysis of the deposited data

How the results depend on the processing

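Over 10 alternative settings, no PRC1 probe set or gene became 2-fold apart (0 in each), and none was 1.5-fold apart. The median over PRC1 probe sets stayed between 0.0061 and 0.02. Many recomputed values could not move. The 1.5-fold rule changes no difference, the filters do not reach the differences of the PRC1 genes, and no PRC1 probe set was a repeat. The count of unmoved values is therefore no measure of robustness. The limit used, the median SD between probe sets of a gene (0.06), also exceeds most PRC1 differences, so a change of sign can pass as unmoved. Of 228 recomputed values and counts, 216 moved by less than that SD, or for counts by no more than 1.5 times. The other 12 are as follows. With the median over probe sets of a gene, Pcgf2 was at 0.20, Cbx2 at 0.16, the germline list at -0.031 and the developmental list at -0.020. With the middle section left out, Cbx2 was read by its dim probe set (0.29). The developmental list had medians of -0.022 without suffixed probe sets, -0.030 with no filter and -0.25 past a filter set at the 75th percentile, which leaves 2 genes. With no filter, 3 other PRC1 subunits (1 with it) and 1 germline gene (0 with it) were 2-fold apart. At 1.5-fold, 1 germline gene and 2 developmental genes were apart. Pcgf2 ranged from 0.20 to 0.28 and Kdm2b from 0.18 to 0.20, while Rnf2 (-0.01 to 0.01), Rybp (-0.02 to 0.0062) and Cbx7 (-0.0076 to 0.02) took both signs. Median centring moved all values by 0.0060. No paired analysis was possible because each group had 1 array, and no replicate could be left out. Dim readings (Bmi1 and 1 probe set each of Cbx2, Cbx7 and Pcgf2) are limited by signal over background, which was not analysed.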
